A study of Mus musculus with 55 samples.

Results

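Large pre-BII cells are the cycling precursors that stand between the pre-BI cell and the resting small pre-BII cell in mouse bone marrow. They were compared here with each of 4 other B lineage populations by oligonucleotide array. Of 55 arrays in the series, 11 carried RNA of large pre-BII cells, 6 on a first design with 6584 probe sets and 5 on a second design with 6595 other probe sets, called the b set. They came from 5 preparations, numbered 1, 2, 8, 9 and 10 in the array titles, and were chosen by the population named there. That number is called the sort or sort number here, a word the titles do not use. Large pre-BII cells had been sorted for B220 (the CD45 isoform of B lineage cells) and CD25 (the interleukin-2 receptor alpha chain) and for absence of surface immunoglobulin. Small pre-BII cells are labelled with the same marks, are set apart by the size in their name, and gave 5 preparations. Pre-BI cells, positive for B220 and c-kit, gave 6 preparations. Immature and mature B cells, both with surface IgM and with low and high B220 respectively, gave 5 preparations each, after an array of mature B cells that repeats another value for value was set aside. All populations came from mouse bone marrow, no treatment or mutation is named, and strain, age and the number of animals behind a preparation are not given in the sources used here.

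A precursor becomes a large pre-BII cell when a newly made heavy chain pairs with the surrogate light chain to form the pre-B cell receptor, which drives a short burst of cell division. The burst ends as the cell becomes small and resting and begins to rearrange its light chain genes. Transcripts for mitosis, among them those of cyclin B, the spindle and the anaphase machinery, accumulate late in the cell cycle and are destroyed or switched off in resting cells. Their promoters are known for CCAAT boxes, bound by NF-Y, and for the cell cycle gene homology region, bound by the DREAM and MuvB complexes, whereas genes of DNA replication are known more for E2F sites.

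The genes that were higher in large pre-BII cells than in every other population, 21 by symbol, are listed with their values further on. Promoters of 20 of them were found in RefSeq for the mouse build GRCm38.p6, as 25 start sites with 250 bases before and 50 after each. The letters TTTGAA or, alternatively, TTCGAA (the homology region, either strand) were present in 17 of the 25 promoters, 68%, and in 19.2% of all 32851 promoters of that table. CCAAT (either strand) was present in 21, 84%, against 37.4% of all, and at least 2 copies in 14, 56%, against 11.7%. The E2F letters (GCGGGAA, also spelled GCGCGAA, further GCGGCAA, and finally GCGCCAA, either strand) were present in 5, 20%, against 9.57%. These are matches of letters in a fixed window and not sites shown to be bound, and some genes are counted by more than 1 start site. The 120 bases before the start are printed 5′ to 3′ on the strand of the gene for 7 of them, with matches to the homology region and CCAAT in capitals. Ube2c (chr2:164769809-164769928, plus strand) and Top2a (chr11:99024190-99024309, minus strand) are markers of the population. Ccnb2 (chr9:70421555-70421674, minus strand) holds 3 matches to CCAAT. Cdkn3 (chr14:46760421-46760540, plus strand) had the largest fold over pre-BI cells among the 31 on the noise-limit scale defined further on. Bub3 (chr7:131560250-131560369, plus strand) and Prc1 (chr7:80294356-80294475, plus strand) carry a CCAAT box and the homology region close together. Cdkn2d (chr9:21291210-21291329, minus strand) has neither in this stretch.
Ube2c: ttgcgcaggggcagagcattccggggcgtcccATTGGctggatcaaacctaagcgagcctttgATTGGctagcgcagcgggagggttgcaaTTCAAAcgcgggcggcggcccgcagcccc
Top2a: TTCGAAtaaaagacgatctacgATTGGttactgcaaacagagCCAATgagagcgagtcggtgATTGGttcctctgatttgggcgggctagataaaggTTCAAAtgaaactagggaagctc
Ccnb2: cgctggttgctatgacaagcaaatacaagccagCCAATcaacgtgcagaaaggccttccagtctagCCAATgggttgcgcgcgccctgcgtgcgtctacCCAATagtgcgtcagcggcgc
Cdkn3: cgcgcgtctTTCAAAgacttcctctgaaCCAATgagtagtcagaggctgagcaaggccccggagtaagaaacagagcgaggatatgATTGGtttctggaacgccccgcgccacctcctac
Bub3: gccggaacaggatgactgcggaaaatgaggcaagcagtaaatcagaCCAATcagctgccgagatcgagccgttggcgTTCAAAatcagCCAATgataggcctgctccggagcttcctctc
Prc1: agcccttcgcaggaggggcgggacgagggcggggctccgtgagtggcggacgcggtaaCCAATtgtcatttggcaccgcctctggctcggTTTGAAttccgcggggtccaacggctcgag
Cdkn2d: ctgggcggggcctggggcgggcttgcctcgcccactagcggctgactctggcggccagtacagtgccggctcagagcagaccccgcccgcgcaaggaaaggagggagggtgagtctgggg

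Levels are normalised intensities, the deposited values brought to a common distribution within each design, and can be negative where a probe set read below its background. A noise limit of 251 for the first design and 319 for the second, which is 2 robust standard deviations of the noise, separates what was measured from what was not. Folds and log2 differences are between means of log2 values raised to that limit, with SE, and carry the words "at least" if the dimmer population had all its preparations under the limit. Adjusted p-values come from limma, fitted to all 26 preparations, with Benjamini-Hochberg adjustment over 10229 tested probe sets in each comparison and a threshold of 0.05. Whether the preparations were made from different animals is not in the labels, so the p-values measure only how these preparations vary, which may be technical, and the number of arrays limits precision. In sorted cells measured in bulk, fewer cells carrying a transcript and less of it per cell cannot be told apart. Preparations of sorts 1 to 3 differed from those of sorts 8 to 11 in an 18S ribosomal RNA control (-39 to 18619 against -224 to 263 over both designs), and each population has preparations of both kinds.

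Against pre-BI cells, 90 probe sets were higher in large pre-BII cells (0.88% of those tested) and 108 lower (1.06%). Against small pre-BII cells 329 were higher (3.22%) and 234 lower (2.29%), a split that became 159 and 42 without scaling and 302 and 288 with trimmed-mean scaling. Against immature B cells 422 were higher (4.13%) and 423 lower (4.14%), and against mature B cells 586 were higher (5.73%) and 549 lower (5.37%). These comparisons share the large pre-BII preparations. Without scaling, the last of them split as 330 and 208. With sort number as a block over all populations, 153 were higher and 171 lower than in pre-BI cells.

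In all 4 comparisons together, 31 probe sets were higher in large pre-BII cells than in every other population (0.303%) and 11 were lower (0.108%). The 31 stand for 21 genes and 7 probe sets with no symbol or several, the 11 for 11 genes. Of the 31, 23 had every large pre-BII preparation above every other preparation (51 of all tested, 0.499%). Of the 11, 5 had every large pre-BII preparation below (8 of all, 0.0782%). Pre-BI cells were the nearest population for 26 of the 31 and for 6 of the 11. The median fold of the 31, with bounds taken at their value, was 2.28 over pre-BI cells. It was at least 5.31 over small pre-BII, 6.03 over immature and 5.81 over mature cells. No preparation exceeded the noise limit for 2 of them in pre-BI cells, and for 13, 18 and 17 in small pre-BII, immature and mature cells.

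The count depends on how dim values are treated. The fit sets values under a floor (87.6 and 6.89 on the respective designs) to that floor, which lies below the noise limit. Raising the floor to the noise limit gave 83 probe sets higher than every other (1.56% of 5310 tested) and 17 lower (0.32%), 29 and 10 of which were among the 31 and 11. The block for sort number gave 50 higher and 23 lower, with all 11 and 29 of the 31 kept, the exceptions being Ube2t and Dyrk1a. The 31 fell to 20 when large pre-BII sort 8 was left out, and the 11 rose to 18 without small pre-BII sort 1. Within sorts 1 to 3 and within sorts 8 to 11, all 31 were higher and all 11 lower in each of the 4 comparisons. Of all tested probe sets 18.7% and 18.6%, and 18.8% and 19.4%, moved so. The 31 and 11 were chosen on these same preparations, so their direction within each part was largely given by that choice. Tests within the parts called 1 and 3 as higher and 4 and 3 as lower. None of those called in sorts 1 to 3 was among the 31 or 11.

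The 3 markers of the population were checked first. Ube2c, the ubiquitin-conjugating enzyme of the anaphase-promoting complex, read 1389, 1417, 1753, 954 and 1290 in large pre-BII sorts 1, 2, 8, 9 and 10. In pre-BI cells it ran from 82.7 to 770 with a median of 349. It lay below the noise limit in all 15 preparations of the later populations, from -358 to 132. No preparation of another population reached the lowest of large pre-BII. The fold was 3.52 over pre-BI (log2 difference 1.82, SE 0.32, adjusted p = 0.0016) and at least 5.31 over each later population (largest adjusted p 4.52e-07).

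Top2a, the topoisomerase that untangles sister chromatids, read 2181, 2626, 3680, 5607 and 2371 in large pre-BII cells on the first set. Pre-BI cells ran from 540 to 1829 with a median of 1073, and the 15 later preparations were all under the limit. The groups did not overlap, with a fold of 2.87 over pre-BI cells (SE 0.35 on log2 1.52, adjusted p = 0.00157) and at least 12.3 over the later ones. A b set probe set for Top2a gave the same picture, 4237 ± 570 (SD, n = 5) against 1607 ± 875 (n = 6) and a fold of 2.94, yet its adjusted p against pre-BI cells was 0.66. Its residual SD on the log2 scale was 1.55 with the low floor and 0.378 with the floor at the noise limit, where the adjusted p was 6.56e-05. Both probe sets bear the suffix that marks cross-matching to related sequences.

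Cdkn2c encodes p18INK4c, an inhibitor of the D cyclin kinases. It read 3495, 2576, 3424, 4715 and 3179 in large pre-BII cells, from 980 to 2277 in pre-BI cells, and from 12.7 to 1017 in the later ones, again without overlap. It was 6.04-fold, 7.87-fold and 7.95-fold higher than in small pre-BII, immature and mature cells (adjusted p = 0.000108, 4.09e-05 and 2.17e-05). The 2.39-fold difference from pre-BI cells did not pass (adjusted p = 0.202), so Cdkn2c is not among the 31, and it passed with the floor at the noise limit (adjusted p = 0.012). All 3 markers thus had their highest levels in large pre-BII cells, and Cdkn2c misses the test against its nearest neighbour. They were chosen as markers of this population, so their levels are no independent check of its label.

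**Figure D1:**
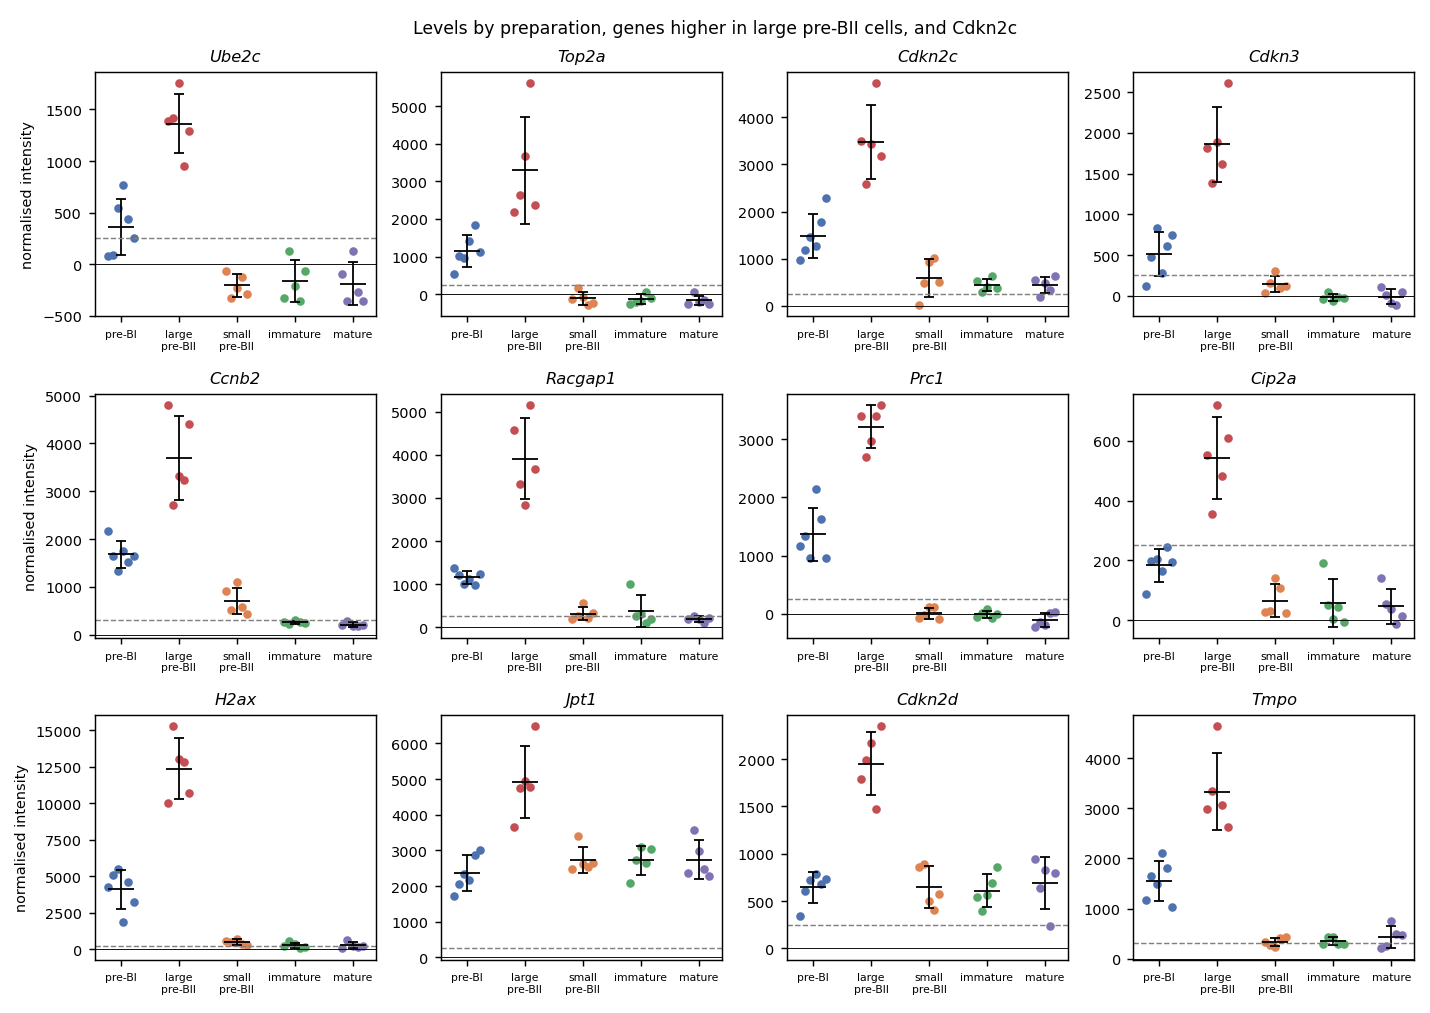
Normalised intensity (vertical axis, linear, own scale per panel) of 12 genes in the 26 preparations, each a point, by population; bars show mean and SD and the dashed line the noise limit. Large pre-BII preparations lie above all others in every panel, with pre-BI cells next for most genes, while Jpt1 and Cdkn2d are level across the other 4 populations.

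Among the called mitotic cyclins and kinases was Cdkn3, a phosphatase of cyclin-dependent kinases. It read 1812, 1382, 1890, 1611 and 2608 in large pre-BII cells, 118 to 834 in pre-BI cells, and at most 298 in the later ones. The lowest large pre-BII value thus exceeded the highest elsewhere, with folds of 3.75 over pre-BI (adjusted p = 0.0018) and 6.99 over small pre-BII, and at least 7.23 over immature and mature cells. Ccnb2, a B cyclin that activates Cdk1 for entry into mitosis, had its highest mean in large pre-BII cells, followed by pre-BI and then small pre-BII cells. It read 4806, 2718, 3326, 3239 and 4416 in large pre-BII, 1334 to 2168 in pre-BI, 436 to 1094 in small pre-BII, and under the noise limit in all 10 preparations of B cells. The fold was 2.18 over pre-BI (adjusted p = 0.0041), 5.43 over small pre-BII and at least 11.4 over immature and mature cells.

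The spindle checkpoint contributed Bub3 and Ttk. Bub3, which docks the checkpoint at kinetochores, was present in every population and read 5819 ± 1169 (SD, n = 5) in large pre-BII against 2855 ± 669 (n = 6) in pre-BI and 1281 to 1546 on average in the others. The folds were 2.05 (adjusted p = 0.0225), 3.97, 4.57 and 4.62, and the call was lost in 5 of 26 fits that leave out a preparation. A second probe set for Bub3 was higher too, 1.66-fold over pre-BI cells, without passing there (adjusted p = 0.439), and another lay under the limit everywhere. Ttk, the kinase that starts checkpoint signalling, was dim, 781, 566, 889, 324 and 395 in large pre-BII against 133 to 357 in pre-BI cells. Its groups overlapped, at a fold of 2.03 (adjusted p = 0.0021), and no later preparation exceeded 5.44.

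Cdca3, an F-box-like trigger of mitotic entry, was measured by 3 probe sets, and all 3 were called. Their large pre-BII means were 1840 ± 366, 1998 ± 242 and 2593 ± 507 (SD, n = 5), and their folds over pre-BI cells 2.91, 2.73 and 2.17 (adjusted p = 0.0115, 0.0103 and 0.0183). Over small pre-BII cells they were 6.16, 7.0 and 6.94. No preparation overlapped in any of them. Ube2t (aa189313_s_at), the ubiquitin-conjugating enzyme of the Fanconi anaemia pathway, read 690, 725, 791, 322 and 651 against 91.4 to 360 in pre-BI cells, so that sort 9 fell inside the pre-BI range. Its fold was 2.24 (adjusted p = 0.0247), and the call was lost in 6 of 26 fits that leave out a preparation and with sort number as a block (largest adjusted p 0.0517).

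Spindle and cytokinesis genes among the 31 were Racgap1, Prc1, Hmmr and Kifc1. Racgap1, the GTPase-activating subunit of centralspindlin, read 4564, 3321, 2830, 5157 and 3680 in large pre-BII, 990 to 1370 in pre-BI and 93.1 to 1012 in the later populations. The folds were 3.32 (SE 0.17 on log2 1.73, adjusted p = 0.0148), 12.2, 11.0 and 15.1. The highest of the later values, 1012, came from immature sort 1. Without large pre-BII sort 9 its largest adjusted p was 0.0533.

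Prc1, which bundles microtubules at the midzone, had the smallest p of the 31 in its weakest comparison (adjusted p = 0.000227). It read 3399, 2693, 2964, 3397 and 3586 in large pre-BII cells against 951 to 2143 in pre-BI cells, and from -223.5 to 112 later. The fold was 2.44 over pre-BI cells and at least 12.7 over each later population. Hmmr, a spindle assembly factor, read 1374, 798, 1201, 1248 and 1241 on the b set against 127 to 565 in pre-BI cells. The fold was 2.82 (adjusted p = 0.0267, lost in 7 of 26 fits without a preparation), and its second probe set was 1.94-fold higher without overlap (adjusted p = 0.0737, and 0.00919 with the floor at the noise limit).

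Kifc1, a minus-end kinesin that focuses spindle poles, read 1364, 3424, 1347, 913 and 1390 in large pre-BII cells and 245 to 979 in pre-BI cells. Sort 2 stood far above the rest and sort 9 inside the pre-BI range. The fold of 2.71 (adjusted p = 0.0139) lost its call without sort 2 (adjusted p = 0.0658). In the later populations Kifc1 read at most 150.

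**Figure D2:**
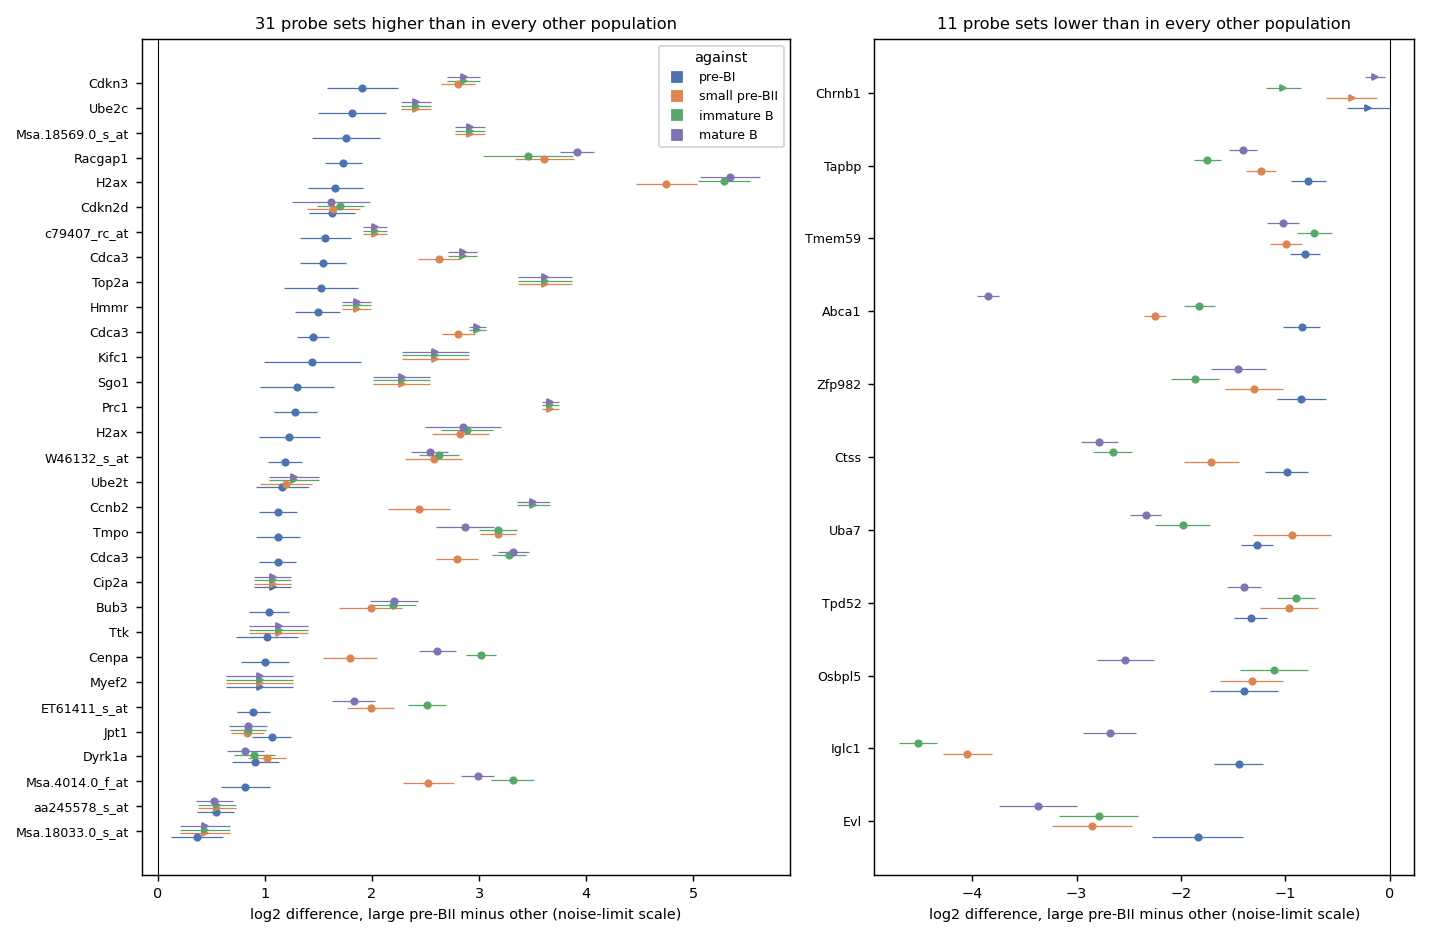
Log2 difference between large pre-BII cells and each other population on the noise-limit scale (horizontal axis; points with SE bars, triangles where the difference is a bound) for the 31 probe sets called higher (left) and the 11 called lower (right) than every other population. Differences from pre-BI cells are the smallest for most higher probe sets, and Cdkn2d, Jpt1 and Dyrk1a show nearly the same difference from all 4; equal triangles, as for Cip2a, follow from the noise limit.

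Chromosome and centromere genes were Cenpa, Sgo1 and Tmpo besides Top2a. Cenpa, the histone H3 variant of centromeres, read 3342, 4736, 5387, 3655 and 4053 in large pre-BII and 1370 to 2850 in pre-BI cells, with no overlap and a fold of 2.00 (adjusted p = 0.012). It stayed measurable in every preparation, at 1255 ± 391 (SD, n = 5), 518 ± 54.4 and 693 ± 130.5 in small pre-BII, immature and mature cells. Without large pre-BII sort 8 the largest adjusted p was 0.0511. Sgo1, the guardian of centromeric cohesion, read 1737, 842, 1029, 871 and 2043 against 224 to 714, a fold of 2.47 (adjusted p = 0.0244, lost in 4 of 26 fits without a preparation), and lay under the limit in all later preparations. Tmpo, a lamina-associated protein of the nuclear envelope, read 2994, 3346, 4630, 3063 and 2635 against 1033 to 2110, a fold of 2.18 (adjusted p = 0.03, lost in 7 of 26), and 9.04 over small pre-BII cells.

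H2ax, the histone variant phosphorylated at DNA breaks, was called on both designs. On the first set it read 10018, 15265, 13036, 12847 and 10674 in large pre-BII cells, 1881 to 5512 in pre-BI cells, and at most 736 afterwards. The folds were 3.16 over pre-BI (adjusted p = 0.0387, lost in 9 of 26 fits without a preparation), 26.9 over small pre-BII, 39.0 over immature and 40.6 over mature cells, of which 2 immature and 1 mature preparation were above the noise limit. The b set probe set, with a higher reading in the later populations, gave 2.34 (adjusted p = 0.00621), 7.09, 7.40 and 7.21. Both probe sets separated large pre-BII from every other preparation.

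Cdkn2d and Jpt1 had similar means in the other 4 populations. Cdkn2d, which encodes the D cyclin kinase inhibitor p19INK4d, read 1790, 1985, 2165, 1476 and 2345 in large pre-BII cells. Elsewhere its population means were 645 ± 162 (SD, n = 6), 648 ± 218, 611 ± 175 and 686.3 ± 275 (n = 5 each) in pre-BI, small pre-BII, immature and mature cells. The folds were thus close together, 3.09, 3.12, 3.26 and 3.06, and the largest adjusted p was 0.00287. Jpt1 had the same shape, at 4923 ± 1008 in large pre-BII against means of 2358 to 2738 elsewhere, with folds of 2.09, 1.78, 1.79 and 1.79 (largest adjusted p 0.0028). Cip2a, an inhibitor of the phosphatase PP2A, read 551, 356, 720, 481 and 609 in large pre-BII cells. It exceeded the noise limit in no preparation of the other 4 populations, so the difference is at least 2.10-fold from each (largest adjusted p 0.00172), an equal bound that says nothing of how those populations compare. Below the limit its mean was 183 in pre-BI cells and 47.1 to 66.2 in the later ones.

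Myef2, a repressor of myelin basic protein transcription, and Dyrk1a, a kinase, complete the 21 genes. Myef2 exceeded the limit in 4 of 5 large pre-BII preparations and in none of the others, with a bound of 1.93-fold (largest adjusted p 0.00136). Dyrk1a (aa119226_s_at) read 624 ± 130 (SD, n = 5) in large pre-BII against means of 300 to 351 elsewhere, with overlap. Its folds were 1.88, 2.03, 1.87 and 1.76 (largest adjusted p 0.0311), the call was lost in 9 of 26 fits without a preparation and with sort number as a block (largest adjusted p 0.0603), and a second probe set was not higher than in mature cells (1.01-fold, adjusted p = 0.958).

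Of the other inhibitors of cyclin-dependent kinases, none was called in all 4 comparisons. Cdkn1b read 2285 ± 469 in large pre-BII cells against means of 2127 to 3337, and Cdkn1a 466 ± 356 against 605 ± 230 in pre-BI and means of 67.7 to 288 in later cells. Neither passed in any comparison (smallest adjusted p 0.247 for Cdkn1b and 0.186 for Cdkn1a, on their brightest probe sets). Cdkn1c and Cdkn2a exceeded the noise limit in no preparation.

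The 7 probe sets with no symbol or several had the same shape as the mitotic genes for the most part. A b set probe set of this kind read 2900, 1676, 2731, 2258 and 2663 in large pre-BII and 435 to 1368 in pre-BI cells. It was below the limit in all later preparations, a fold of 3.38 over pre-BI (adjusted p = 0.0118) and at least 7.54 over the others. The probe set c79407_rc_at gave 2.96 and at least 4.08, and W46132_s_at 2.28 over pre-BI and 5.81 to 6.17 over the others. The remaining 4 had folds over pre-BI cells of 1.29 to 1.86, and 3 of them overlapped with other populations. Another of them, on the b set, exceeded the limit in 3 of 5 large pre-BII preparations.

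The gene lists place these members among their pathways. They were chosen with results of these data known, and each gene is counted by its brightest probe set. Of 66 genes of mitosis in 4 lists, 11 were higher in large pre-BII cells than in every other population, against 19 of all 5027 genes (0.378%). Against pre-BI cells the same 11 were higher and none lower, against 1.03% and 1.81% of all genes. Against small pre-BII, immature and mature cells 48, 52 and 53 of the 66 were higher and none lower. Their mean was highest in large pre-BII cells for 56 of 66, compared with 935 of all 5027 genes. With bounds taken at their value, the median log2 difference was 0.77 from pre-BI, 1.78 from small pre-BII, 1.96 from immature and 1.79 from mature cells. Over all genes it was 0.00 in each.

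On the noise-limit scale the median difference from pre-BI cells was 0.96 over 20 spindle and cytokinesis genes (3 called), 0.84 over 19 mitotic cyclins and kinases (3 called) and 0.61 over 17 mitotic chromosome genes (4 called). In the fit, with its lower floor, these medians were 1.00, 1.12 and 0.66, so the first 2 change places. The anaphase-promoting complex and its partners, 10 genes, had a median of 0.05, and Ube2c was called. Cdk1, the kinase of mitosis, read 9443 ± 1332 (SD, n = 5) against 5778 ± 1400 in pre-BI cells, 1.66-fold (adjusted p = 0.176), and Mki67, the proliferation antigen, 12604 ± 1375 against 8248 ± 2404, 1.58-fold (adjusted p = 0.133). Both were over 7-fold higher than in small pre-BII cells (7.14 and 7.77, adjusted p = 2.88e-08 and 8.2e-10). These and the other non-members of this and the next paragraph were chosen after their values were seen.

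Genes of DNA replication fire origins, build the fork and supply its nucleotides. None of 28 licensing and fork genes was called against pre-BI cells, with a median log2 difference of 0.15, while 19, 18 and 18 were higher than in small pre-BII, immature and mature cells and none lower (4%, 5.21% and 7.44% of all genes were higher). Pcna, the sliding clamp, read 4813 ± 773 (SD, n = 5) against 4214 ± 836 in pre-BI, and Mcm5, a helicase subunit, 3294 ± 997 against 3087 ± 776 (folds 1.15 and 1.05, adjusted p = 0.869 and 0.998). With the floor at the noise limit 3 of 27 were called against pre-BI cells, Cdc45, Dbf4 and Rpa3, against 31 of 60 mitotic genes and 3.04% of all (3.68% of all were lower). In all 4 comparisons these counts were the same, against 1.61% of all genes higher and 0.518% lower than in every other population. Nucleotide synthesis genes had a median of -0.21 from pre-BI cells, with Nme2 lower and none higher of 15, and 6, 6 and 5 were higher than in the later populations. Of 35 histone and chromatin assembly genes, H2ax was called against pre-BI cells, and 18, 20 and 21 were higher than in the later ones. The difference between these lists was not tested as such.

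**Figure D3:**
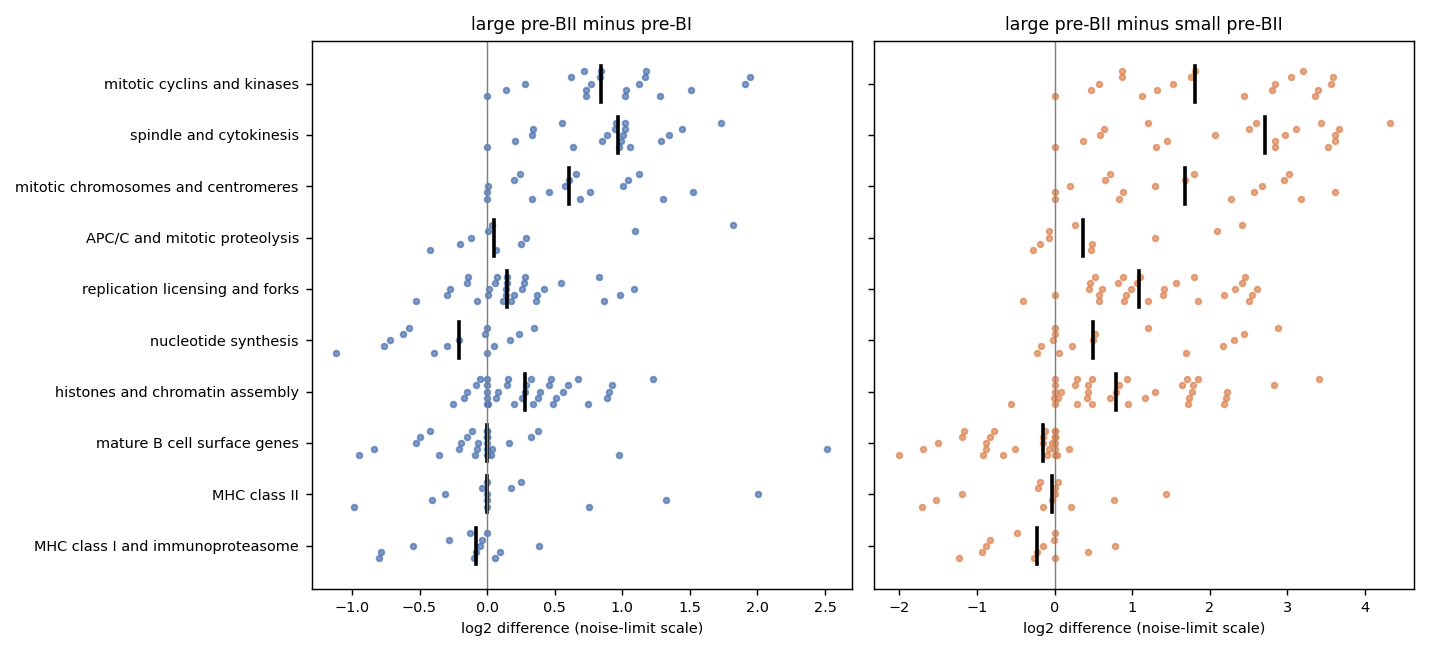
Log2 difference (horizontal axis, noise-limit scale) of each gene in 10 lists, by its brightest probe set, for large pre-BII minus pre-BI cells (left) and minus small pre-BII cells (right); black bars are list medians. Spindle, kinase and chromosome lists lie right of 0 in both panels, and the replication list is shifted in the right panel with a median of 0.15 in the left.

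The wider set of 83 probe sets, 58 genes by symbol of which 33 belong to the mitotic lists, adds genes not called in all 4 comparisons at the low floor. At the noise-limit floor fewer probe sets were tested (5310 against 10229), and values under it became constant. The part of either in the smaller p-values was not tested. Their names were chosen after their values were seen. Nek2, a centrosome kinase, read 2234, 4585, 3693, 4651 and 3999 in large pre-BII cells against 768 to 1669 in pre-BI and at most 471 later. This was the largest difference from pre-BI cells of all 83 on the noise-limit scale, 3.84-fold, with an adjusted p of 1.59e-07 at the noise-limit floor and 0.151 at the low floor. Ccna2, the cyclin of S phase and early mitosis, read 3005, 3394, 5449, 5119 and 4371 against 1478 to 2676 (2.04-fold, 0.000364 and 0.266). Kpna2, a nuclear import receptor, was 2.74-fold higher than in pre-BI cells (0.00167 and 0.117) and Aurka, a spindle pole kinase, 3.11-fold with overlap (0.00484 at the noise-limit floor). A b set probe set for Aurka was also called at that floor, with a smaller log2 difference from pre-BI cells of 1.28, again with overlap (largest adjusted p 0.0421).

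Others of this wider set were Cks1b and Cks2, the small Cdk-binding subunits, at 2.24-fold and 2.84-fold over pre-BI cells. Cks1b did not overlap, whereas Cks2 did, with pre-BI sort 8 at 3171 (largest adjusted p 0.00653 and 0.00381 at the noise-limit floor). The kinesins Kif2c and Kif20a were at 2.03-fold and 1.97-fold (0.00843 and 0.0149 at that floor). Ect2, the exchange factor that Racgap1 activates, read 586 ± 76.9 (SD, n = 5) against 316 ± 59.3 in pre-BI cells, 1.85-fold without overlap (1.91e-06 at the noise-limit floor, 0.107 at the low one). Nfyb, a subunit of the CCAAT-binding factor, read 935 ± 161 against 447 ± 181, 2.12-fold without overlap (0.00144 and 0.146). In the promoters of this wider set, found for 50 genes as 57 start sites, the homology region letters were in 56.1%, CCAAT in 73.7% and the E2F letters in 29.8%.

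Of the 253 probe sets higher in large pre-BII cells than in all 3 later populations, 31 were also higher and 3 lower than in pre-BI cells, and 219 were not called there. The difference from pre-BI cells was positive for 84.6% of the 253, against 49.8% of all tested. The same large pre-BII preparations entered the choice of the 253 and this difference, which by itself favours a positive sign. Of the 90 higher than in pre-BI cells, 12, 12 and 14 were lower than in small pre-BII, immature and mature cells.

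The 11 genes lower in large pre-BII cells than in every other population had no list in common. Evl, an Ena/VASP protein that extends actin filaments, read 1052, 357, 365, 11.4 and 479 in large pre-BII sorts 1, 2, 8, 9 and 10. In pre-BI cells it ran from 789 to 2420 with a median of 1765, and means further on were 3252 ± 815 (SD, n = 5), 3106 ± 658 and 4645 ± 1002 in small pre-BII, immature and mature cells. Sort 1 reached into the pre-BI range and the other 4 lay below every other preparation. The folds were 3.58 below pre-BI (adjusted p = 0.0025), 7.21, 6.91 and 10.4.

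Iglc1, a constant region of the lambda light chain, read 439, 229, 397, 252 and 299 in large pre-BII cells, near the noise limit, and 631 to 1272 in pre-BI cells. Small pre-BII cells were 16.5-fold higher, at 5410 ± 1412 (SD, n = 5), and Iglc1 reached 7357 ± 962 in immature cells, then 2118 ± 607 in mature cells. The groups did not overlap, and large pre-BII cells were 2.73-fold below pre-BI cells (adjusted p = 0.000242).

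Ctss and Tapbp belong to antigen presentation. Ctss, the protease that clears the invariant chain from class II molecules, read 1069, 783, 1558, 1375 and 1151 in large pre-BII cells, 1737 to 2957 in pre-BI, and 3926 ± 1104 (SD, n = 5), 7322 ± 855 and 7975 ± 665 in the 3 later populations. No preparation overlapped, at folds of 1.98 (adjusted p = 0.00296), 3.28, 6.30 and 6.88. Tapbp, the class I loading factor tapasin, read 2828, 3114, 2446, 2702 and 3649 against 3669 to 7279 in pre-BI cells and 5607 to 11994 later. The folds were 1.72 (adjusted p = 0.00437), 2.35, 3.36 and 2.65, without overlap, although sort 10 of large pre-BII lay just under the lowest pre-BI value.

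Of the lipid-handling genes, Abca1, the cholesterol exporter, read 261, 234, 355, 285 and 272 in large pre-BII cells, at the noise limit. It was 1.79-fold higher in pre-BI cells, where 1 preparation (351) fell inside the large pre-BII range (adjusted p = 0.00611), and 4.75-fold, 3.54-fold and 14.4-fold higher in small pre-BII, immature and mature cells. A second Abca1 probe set lay under the limit in every preparation. Osbpl5, an oxysterol-binding-related protein, read 544 ± 226 (SD, n = 5) against 1430 ± 590 (n = 6) in pre-BI and 1149 to 2993 on average later, with folds of 2.64, 2.50, 2.16 and 5.78 (largest adjusted p 0.0114).

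Tpd52 and Tmem59 were measured well above the limit everywhere. Tpd52 read 1303 ± 273 (SD, n = 5) against 3231 ± 314 (n = 6) in pre-BI cells and means of 2405 to 3379 later, with folds of 2.52, 1.95, 1.86 and 2.63 (largest adjusted p 0.00354). Tmem59 read 1775 ± 320 against 3095 ± 352 and means of 2927 to 3586, with folds of 1.76, 1.99, 1.65 and 2.03 and no overlap (largest adjusted p 0.00246). Of its other 3 probe sets, 2 were lower in the mean without passing in all 4 comparisons, and the other lay around the noise limit.

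The last 3 of the 11 rest on less. Uba7, the activating enzyme of the ubiquitin-like ISG15, read 260.5 ± 58.6 (SD, n = 5) against 691 ± 160 in pre-BI cells, but its largest adjusted p of 0.0481, against small pre-BII cells, was lost in 22 of 26 fits without a preparation. Zfp982, a zinc finger gene, read 440 ± 135 against 781 ± 141, with a largest adjusted p of 0.0444 lost in 14 of 26. Chrnb1, a subunit of the muscle acetylcholine receptor, exceeded the limit in no large pre-BII preparation and in 1 of 6 of pre-BI, and was not called with the floor at the noise limit (largest adjusted p 0.861).

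**Figure D4:**
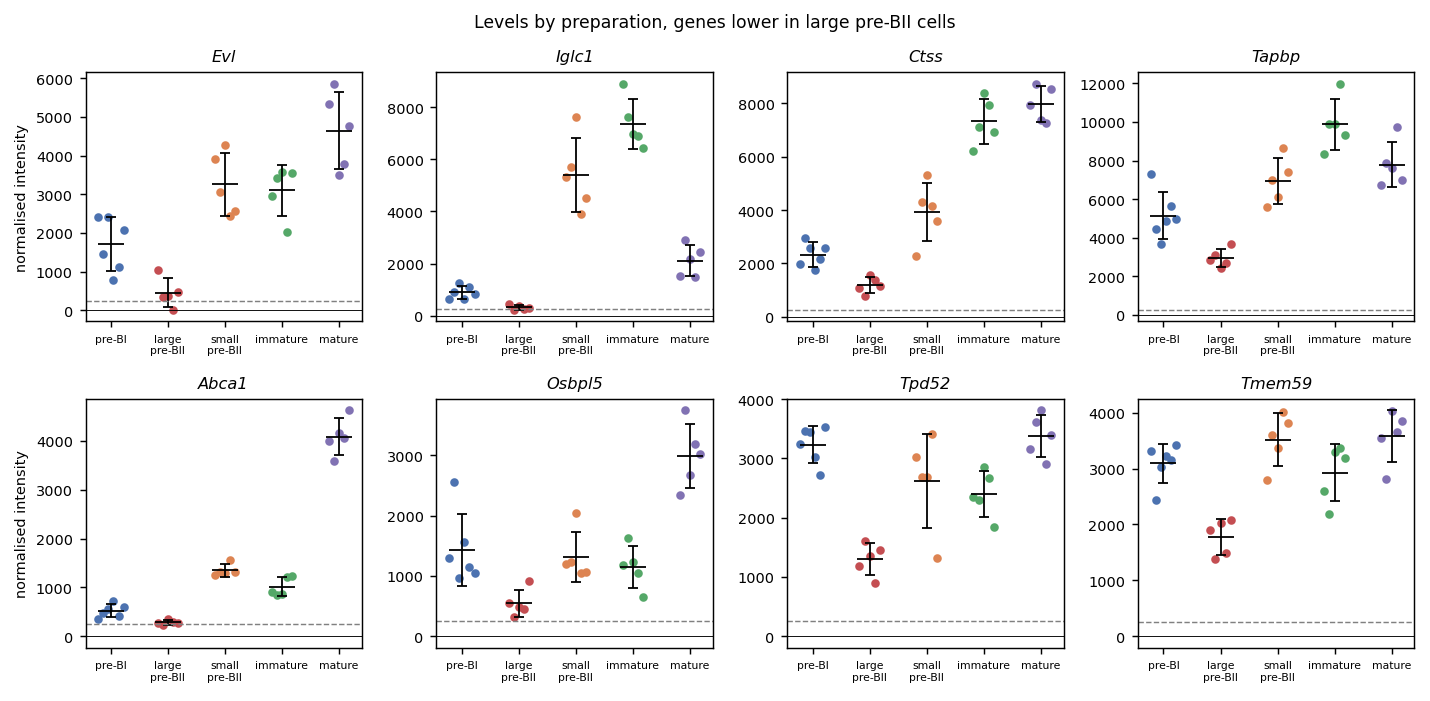
Normalised intensity (vertical axis, linear, own scale per panel) of 8 genes lower in large pre-BII cells, in 26 preparations by population, with mean and SD as bars and the noise limit dashed. Large pre-BII cells have the lowest mean in each panel, and Iglc1 and Ctss are higher from small pre-BII cells on.

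With the floor at the noise limit 7 genes were added to the lower set, named after their values were seen: Irf8, Vav1, Macf1, Cr1l, Pisd, Rgl2 and Mrpl24. Irf8, a transcription factor of B cell development, read 631, 747, 613, 588 and 674 in large pre-BII cells against 913 to 2457 in pre-BI and 662 to 1758 in small pre-BII cells. Immature cells ran from 2342 to 3753, mature cells from 2282 to 2972. Small pre-BII sort 8 overlapped with large pre-BII cells, at a fold of 1.68 (adjusted p = 0.0459 at the noise-limit floor, 0.0724 at the low one), and the folds from the other populations were 2.24, 4.90 and 4.0. Vav1, an exchange factor in receptor signalling, was 1.45-fold to 1.95-fold lower (largest adjusted p 0.0404 and 0.0573).

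Of 27 genes of the mature B cell surface, 9, 16 and 15 were lower than in small pre-BII, immature and mature cells, against 1 lower (Ltb) and 2 higher (Fcrla and Icam2) in the comparison with pre-BI cells. Their mean was lowest in large pre-BII cells for 16 of 27, against 1214 of all 5027 genes (0.219% of all were lower than in every other population, and none of these 27). Of 13 class II genes 3, 7 and 11 were lower than in the later populations. Ctss was the member lower than in pre-BI cells, and H2-Aa, a class II alpha chain, was higher, 2541 ± 531 (SD, n = 5) against 820 ± 765 (n = 6), 4.01-fold (adjusted p = 0.00121). For all genes the shares called lower were 1.81% against pre-BI, 2.94% against small pre-BII, 5.03% against immature and 6.56% against mature cells.

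The genes of the sort gates were checked against the labels. Ptprc, which encodes B220, read 2745 ± 434 (SD, n = 5) in large pre-BII and 2928 ± 670 (n = 6) in pre-BI cells, and was 1.63-fold, 3.05-fold and 3.37-fold lower than in small pre-BII, immature and mature cells (adjusted p = 0.00312, 1.37e-08 and 2.49e-09). Il2ra, which encodes CD25, exceeded the noise limit in no large pre-BII preparation on either design, so the arrays do not bear on that gate. Kit exceeded it in 2 of 6 pre-BI preparations and in no large pre-BII preparation. Ighm, the mu heavy chain, was bright in all populations, at 12638 ± 818 in large pre-BII on the first set, and was called in no comparison with large pre-BII cells (smallest adjusted p 0.163 over its tested probe sets).

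Of the lists of other marrow cells, the granulocyte and macrophage list and the erythroid and megakaryocyte list had genes above the limit in all populations. The T and NK, stromal and plasma cell lists did not. Of 23 granulocyte and macrophage genes, 6 had a mean above the limit in large pre-BII cells and 8 in pre-BI cells, with summed levels of 6086 to 13493 against 10489 to 25745. Ngp, a granule protein, read 1745 ± 550 (SD, n = 5) against 4187 ± 1634 (n = 6), and Lyz2, lysozyme, 3033 ± 1404 against 5503 ± 1814 (adjusted p = 0.0759 and 0.053). Of 15 T and NK cell genes, Gzma, a granzyme, was 3.38-fold lower in large pre-BII than in pre-BI cells (353 ± 71.7 against 1333 ± 613, adjusted p = 0.00233), with summed levels of 1305 to 1959 against 1974 to 4347. Thy1 of that list and Fcer1g of the granulocyte list also passed as lower than in pre-BI cells, 1120 ± 376 against 3492 ± 1574 for Fcer1g (adjusted p = 0.00072). The mean of Thy1 was under the noise limit in both populations, with a log2 difference of -0.21 on the noise-limit scale. Of 11 erythroid and megakaryocyte genes 7 exceeded the limit in both, and Hba-a1, a globin, read 10465 ± 1932 and 10499 ± 2426. No plasma cell gene and 1 of 14 stromal genes, Col1a1, had a mean above the limit in large pre-BII cells. The part of these cells in the differences from pre-BI cells was not tested.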

How the data were processed

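RNA of 5 sorted B lineage populations was measured on 2 oligonucleotide array designs. The deposited values are 1 background-subtracted intensity per probe set and array, linear, with negative values. The authors' scanning and summarising steps are not given in the sources used here, and trimmed means differed up to 5.6-fold and 4.23-fold between arrays of a design, so the values were not on a common scale.

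After 110 control probe sets were removed, each design was quantile normalised. Second arrays of a preparation were averaged with the first. Values were floored at the 40th percentile (87.6 and 6.89), and log2 was taken. A probe set was tested if 5 or more of the 26 preparations exceeded the floor, with limma 3.58.1 in R 4.3.3 (lmFit, eBayes with a trend), with 1 fit for all populations and Benjamini-Hochberg adjustment per comparison. A probe set is higher or lower than every other population if its adjusted p is under 0.05 in all 4. The noise limit, 2 robust SD of mirrored negative values, was exceeded by 40.0% and 20.1% of values. The platform annotation gave 7542 probe sets with 1 symbol, 224 with several and 5303 with none, and genes were named only from the first kind. The first mature B array titled 1_2 is identical in all 6584 values to that titled 11 and was left out.

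Named genes were the markers, the sort-gate genes, the called probe sets with the largest difference in their weakest comparison, called members of each list, and measured inhibitors of cyclin-dependent kinases. The members and lists were chosen with earlier results of these data known. Deviations of same-numbered large pre-BII and pre-BI preparations correlated at 0.11 to 0.30 in all 5 pairs. The correlations were 0.003 to 0.24 with small pre-BII, -0.07 to 0.11 with immature and 0.08 to 0.29 with mature cells. The same-numbered preparation correlated best in 3 of 5, 3 of 4, 0 of 4 and 2 of 3 pairs, in the order named. Pairing by sort number is thus weak and not clearly limited to pre-BI cells. The main fit used no pairing, and the block for sort number covered all populations. The fit was tested on simulated data with normal spread and changes placed in brighter probe sets only. That simulation had no floor and no effect of sort number, so it does not bear on how dim values change the counts.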

Additional observations from a re-analysis of the deposited data

Results flagged for a closer look

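In 118 groups of 5 or 6 preparations of the named probe sets, 5 held a preparation far from the others, and chance flags about 1 in 20 groups. Racgap1 in immature sort 1 read 1012, where the other immature preparations read 97.7 to 310. Kifc1 in large pre-BII sort 2 read 3424, where the others read 913 to 1390. Jpt1 in small pre-BII sort 3 read 3391, where the others read 2488 to 2643. Osbpl5 in small pre-BII sort 8 read 2046, where the others read 1054 to 1231. Abca1 in small pre-BII sort 9 read 1569, where the others read 1245 to 1313. Of these, Kifc1 concerns the large pre-BII preparations, and its call was lost without that sort.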

How the results depend on the processing

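With values as deposited and no scaling, 50, 201, 414 and 538 probe sets differed from pre-BI, small pre-BII, immature and mature cells, 5 were higher and 1 lower than in every other population. Against small pre-BII cells 75th-percentile scaling split the calls as 330 higher and 167 lower, and against immature cells the unscaled values split them as 240 and 174. With the floor at the 25th percentile (a value of 1 where that percentile is lower) 131 differed from pre-BI cells and 8 were higher than in every other. With the floor at the 60th these were 299 and 81, and at the noise limit 300 and 83, with 17 lower. A fit of only the 2 populations compared left 3 lower. Within sorts 1 to 3, 17, 120, 249 and 341 differed, 1 was higher and 4 lower, none of them among the 31 or 11. Within sorts 8 to 11, 75 differed from pre-BI and 353 from small pre-BII cells, and 3 were higher and 3 lower, of which 2 and 2 were among them. With sort number as a replicate block, 324 differed from pre-BI cells, 50 were higher and 23 lower, and the other comparisons gave 775, 1040 and 1271. The causes of these shifts were not tested. Leaving out each preparation in turn gave 164 to 225, 494 to 578, 734 to 887 and 1011 to 1187 in the 4 comparisons, 20 (without large pre-BII sort 8) to 44 (without pre-BI sort 8) higher than every other, and 9 (without pre-BI sort 2) to 18 (without small pre-BII sort 1) lower. No named probe set called in all 4 comparisons reversed, and reversal was not followed for the rest. Called or not, named probe sets kept that status in 671 of 812 other fits and in 1343 of 1430 leave-one-out fits. These totals include named probe sets not called in all 4 comparisons, for which a kept status means still not called, whatever the sign. Called probe sets, each with 15 other fits and 26 leave-one-out fits, lost their call in 135 and 86 of these. The totals of 812 and 1430 are not the base for these losses, as probe sets not called could lose no call. The share of values above the noise limit limits what can be said of dim transcripts, more so on the b set.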
